A study of Rattus norvegicus with 22 samples.

Results

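Lrp5 and 8 other genes of Wnt signalling were followed in the liver of rats fed with control diet or with BASE-diet, a diet enriched in biologically active substances. The genes were Lrp5, Lrp6, Fzd4, Wnt11, Ctnnb1, Axin2, Tcf7l2, Lgr5 and Tbx3, and they were found by their names, whatever the case of the letters, among the probes of the array that were not controls. They were reported by 13 of 30367 probes, that is by 9 of 26276 gene names. The set was chosen from the ratios of these same arrays, in which Lrp5 was lower with time and lowest in older rats on BASE-diet and Wnt11 stood out at 14 months, so that the values of both are given as a description without a test.

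Liver RNA of 22 male Sprague-Dawley rats, aged 8 weeks at the start, had been labelled with Cy5 and set on Agilent two-colour arrays against Cy3-labelled RNA of a common reference, which came from healthy rats aged 10 weeks. The groups were CD 3 and BD 3 (control diet and BASE-diet for 3 months, 5 rats each) and CD 14 and BD 14 (the same diets for 14 months, 6 rats each). BASE-diet was the semi-synthetic control diet in which 6% salmon fat took the place of lard, with 8% linden inflorescence extract, 8% pumpkin puree and 1% probiotic. The composition that the paper lists also has more rapeseed oil, less wheat starch and a lower share of probiotic than this. The effects of the components cannot be told apart. The labels give Cy5 for the rat on every array, whereas the methods name Cy3 for control rats and Cy5 for rats fed with BASE-diet, and the labels were followed here. All values below are log2 ratios of the rat to the reference unless another scale is named, and a difference of 1 is a doubling.

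In the canonical Wnt pathway a secreted Wnt protein binds a Frizzled receptor together with the co-receptor Lrp5 or Lrp6, the complex that destroys beta-catenin is held back, and beta-catenin enters the nucleus, where it switches on genes with factors of the Tcf family. R-spondins strengthen the signal through the receptors Lgr4 and Lgr5. In the liver the pathway is known for setting up the zone around the central vein, where hepatocytes make glutamine and express several cytochromes P450, with Wnt and R-spondin proteins of endothelial cells as its source. Axin2, Lgr5 and Tbx3 are known targets in these hepatocytes.

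The probes that the results turn on are shown by the first 30 of their 60 bases, since they define what was measured for Lrp5, for Wnt11, of whose 2 probes 1 was bright enough to be tested, and for beta-catenin.
Lrp5, A_64_P095068: ggtgggcagggctgggaaaactttgtacag
Wnt11, A_64_P082749: atcaaaggaaactgataggattaaaaataa
Wnt11, A_64_P092744: gtgggagctacaagaaatatttataaaata
Ctnnb1, A_44_P526933: ccaggaatgaaggcgtggcaacatatgcgg
The Lrp5 probe lay on the minus strand at chr1:206102758-206102817 of the rat build rn4, as the files annotate it. The Wnt11 probes lay on the plus strand at chr1:156140983-156141042 and chr1:156141221-156141280. The Ctnnb1 probe covered 180 genomic bases at chr8:125985864-125986043, 120 more than its length. Exons and untranslated regions of rn4 were not analysed here.

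The arrays were not equally bright, and they lay unevenly on 5 slides, which are lettered here by the order of scanning. Between 52.4% and 93.6% of the spots of an array were well above background in the liver channel. The lowest share was that of CD 3 rat 4, whose array also had the lowest median Cy5 signal (44.2). Slide A held CD 3 rat 1 and BD 3 rats 1 and 2, slide B held BD 3 rats 3 to 5 and CD 14 rats 1 to 3, and slide C held all 6 BD 14 arrays with CD 14 rats 4 and 5. Slide D held CD 3 rats 2 to 4, and slide E held CD 3 rat 5 and CD 14 rat 6. BD 14 therefore shared no slide with CD 3 or BD 3. CD 3 rat 1 and CD 14 rat 1 had many non-uniform spots (4.44% and 4.05%), and without both arrays the diet differences of Lrp5 given below were −0.56 and −0.79. All 8 hepatocyte markers (such as Alb, Ttr and Apoa1) were well above background on all 22 arrays, as the liver label requires. In whole liver, fewer cells of a type and less RNA per cell cannot be told apart.

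Lrp5, a co-receptor that takes up Wnt signals beside Frizzled proteins, was well above background on all 22 arrays in both channels. In CD 3 the ratios of rats 1 to 5 were 1.29, 0.54, 1.15, 1.74 and 0.61. In BD 3 they were 1.05, 0.02, 0.08, 0.74 and 0.35. All 10 rats at 3 months thus lay above the reference, and the groups overlapped. The highest ratio, 1.74 in CD 3 rat 4, came from the array with the lowest share of spots well above background. Without this array the Lrp5 differences given below were −0.45 between diets at 3 months and −0.90 between times on control diet.

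In CD 14 the Lrp5 ratios of rats 1 to 6 were 0.61, −0.52, 0.20, 0.15, −0.54 and 0.06. In BD 14 they were −0.91, −0.50, −0.92, −1.05, −1.23 and −0.90. All 6 rats of BD 14 lay below the reference, and 5 of them were below every other array of the series, while rat 2 fell among the lowest rats of CD 14.

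Ordered by their means, CD 3 came first with 1.06 ± 0.50 (SD, n = 5), and BD 3 followed with 0.45 ± 0.44 (SD, n = 5). CD 14 had −0.00 ± 0.45 and BD 14 had −0.92 ± 0.24 (SD, n = 6 each). Neighbours in this order overlapped in every case. BD 14 did not overlap with CD 3 or BD 3, which was so for 1.44% and 2.26% of the 19434 tested probes. Lrp5 was chosen for this order, and nothing is read from these shares. The difference between diets was −0.62 (standard error 0.26) at 3 months and −0.92 (0.24) at 14 months, and the difference between times was −1.07 (0.25) on control diet and −1.37 (0.25) on BASE-diet. The interaction, which is the diet difference at 14 months less that at 3 months, was −0.30 (0.36). Between BD 14 and CD 3 the difference was −1.98 (0.25), a 3.96-fold lower ratio.

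**Figure D1:**
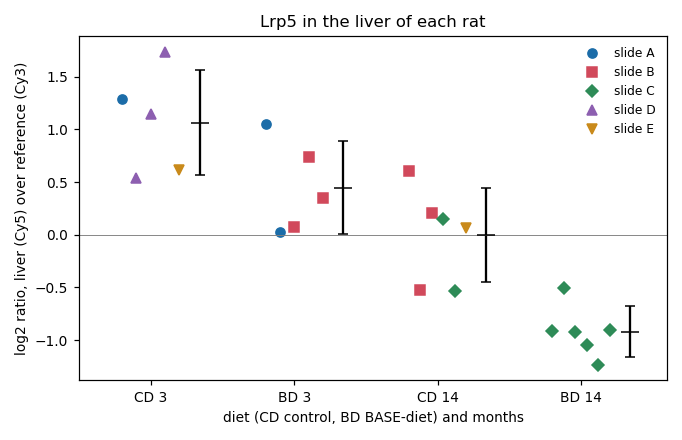
Log2 ratio of Lrp5 (liver in Cy5 over the common reference in Cy3) for each of the 22 rats by diet and months, with the slide of each array as colour and shape, and the group mean with its SD beside the points. BD 14 has the lowest values (−1.23 to −0.50), all of them on slide C.

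On slide C alone the 2 CD 14 rats had Lrp5 ratios of 0.15 and −0.54 and the 6 BD 14 rats a mean of −0.92, a difference of −0.73. On slide A, CD 3 rat 1 had 1.29 and the BD 3 rats 1.05 and 0.02. On slide E, the rat of CD 3 had 0.61 and that of CD 14 had 0.06. With the slide as a block in the fit, the differences were −0.57 between diets at 3 months, −0.73 between diets at 14 months, −0.79 between times on control diet and −0.94 between times on BASE-diet. All 4 kept their direction under the block, which is no test, since Lrp5 was chosen for its order on these same arrays. Since BD 14 and BD 3 shared no slide, the last of these values has no comparison within a slide and rests on CD 14 and CD 3 arrays that link the slides, and the others rest on few rats.

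The channels were also looked at separately, because the ratio can move with either. The processed Cy5 signal of Lrp5 was between 1108 and 6180 in CD 3, 1041 and 1864 in BD 3, 677 and 3348 in CD 14, and 721 and 1077 in BD 14. The log2 Cy3 signal of the reference, which was the same RNA on every array, had means of 10.56, 10.17, 10.72 and 10.69 in the same order. The 2 groups at 14 months thus had nearly the same reference signal, and their difference lay in Cy5. After quantile normalization of the Cy5 channel alone, the diet differences were −0.89 and −0.75 and the time differences −1.06 on control diet and −0.91 on BASE-diet.

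**Figure D2:**
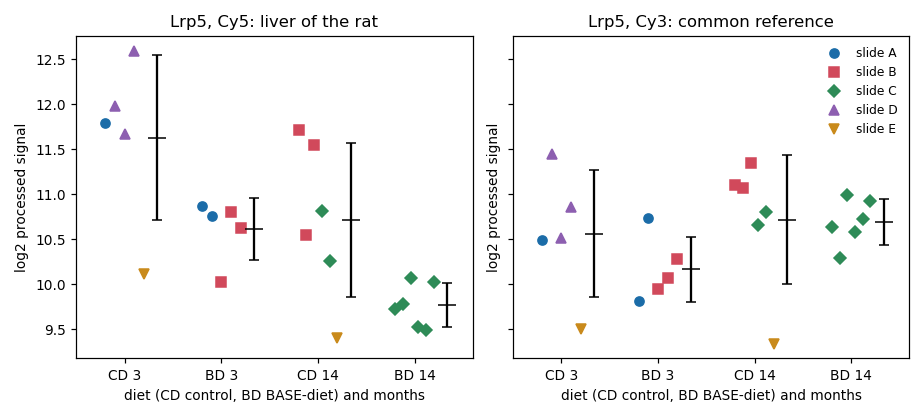
Log2 processed signals of Lrp5 in Cy5 (left) and in Cy3 (right) for each rat by group, with slides as colour and shape and the group mean with its SD. The mean Cy5 signal goes from 11.63 in CD 3 to 9.77 in BD 14, and the mean Cy3 signal lies between 10.17 and 10.72.

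Lrp6, the other co-receptor of canonical Wnt signalling, was measured by 2 probes, both well above background on all 22 arrays. The brighter probe (A_64_P014434) had ratios of 0.32, −0.19, −0.19, −1.24 and −0.38 in CD 3 and −0.54, −0.16, 0.08, −0.44 and −0.59 in BD 3. At 14 months it was between −1.74 and −0.14 in CD 14 (median −0.45) and between −1.38 and 0.07 in BD 14 (median −0.22). All groups overlapped. The diet difference was 0.005 (standard error 0.34) at 3 months and 0.27 (0.31) at 14 months, with limma adjusted p of 0.999 and 0.954. Under a slide block these values were −0.50 and 1.13, and from Cy5 signals alone 1.23 and −0.50, none of which passed. The second probe (A_64_P014437) differed by −0.47 (0.25) and 0.18 (0.23), with limma adjusted p of 0.755 and 0.956. Over the 22 arrays, the correlation of Lrp6 with Lrp5 was 0.13 for the brighter probe and 0.10 for the second. Arrays share slides and a reference, and the correlation is only a description.

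Fzd4, a Frizzled receptor of endothelial and other cells, was dim, with a median Cy5 signal of 29.6. It was well above background in Cy5 on 18 arrays and in Cy3 on 12 arrays, of which 1 was a BD 14 array. In Cy5 these were 3 of 5 arrays in CD 3, 5 of 5 in BD 3, 4 of 6 in CD 14 and 6 of 6 in BD 14. The probe was thus tested only through the BASE-diet groups, and nothing is read from its higher ratio in BD 14. Its ratios were −1.14, 1.07, −0.59, −0.62 and −0.73 in CD 3 and −0.15, −0.11, 0.27, 0.41 and −1.58 in BD 3. In CD 14 they lay between −1.15 and 1.24 (median −0.53) and in BD 14 between −0.56 and 1.80 (median 0.59). BD 14 was higher than CD 14 by 0.94 (standard error 0.44), the limma adjusted p was 0.952, and the groups overlapped. With normexp background correction and loess this difference was 0.23, on slide C alone 0.56 and from Cy5 signals alone 1.19.

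Wnt11, a secreted ligand best known for signalling that does not need beta-catenin, was close to background on both probes. The brighter one (A_64_P082749) had ratios of 0.98, −0.14, 0.36, 0.53 and −0.43 in CD 3, and 0.56, 0.67, −0.36, −1.24 and −0.54 in BD 3. In CD 14 they were 0.53, −0.26, −0.48, −1.69, −0.72 and −0.83, and in BD 14 they were 0.62, 0.57, 1.60, 1.32, 0.64 and 1.12. Every rat of BD 14 was above every rat of CD 14, which was so in one direction or the other for 0.767% of the tested probes. The difference was 1.55 (standard error 0.35) at 14 months and −0.44 (0.39) at 3 months.

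The gap at 14 months lay in the reference channel and not in the liver channel. The mean log2 Cy5 signal of this Wnt11 probe was 5.24 in CD 14 and 4.60 in BD 14. Its mean log2 Cy3 signal was 5.81 in CD 14 and 3.62 in BD 14, where it was well above background on 0 of 6 arrays, against 5 of 6 in CD 14. Since the Cy3 value of BD 14 is then only a limit, the ratio there has no measured denominator. The Cy5 channel alone gave a difference of 0.03, and normexp background correction with loess gave 0.28. The second Wnt11 probe (A_64_P092744) was well above background in Cy5 on 6 of 22 arrays and 0 of 6 in BD 14, and was not tested.

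**Figure D3:**
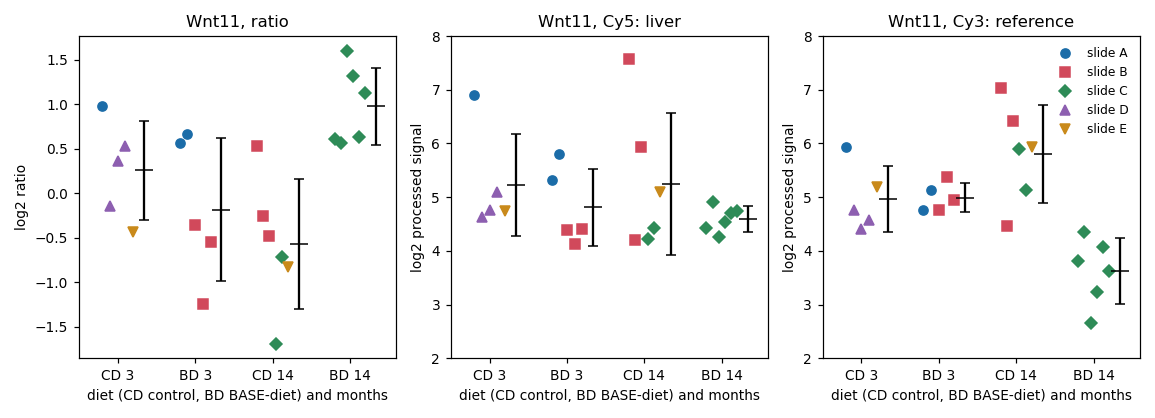
The brighter Wnt11 probe in each rat by group: log2 ratio (left), log2 processed Cy5 signal of the liver (middle) and log2 processed Cy3 signal of the reference (right), with slides as colour and shape and the group mean with its SD. In the ratio BD 14 lies above CD 14 and overlaps with CD 3 and BD 3, in Cy3 it lies below the other groups (mean 3.62), and in Cy5 its mean is 4.60.

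Ctnnb1, which encodes beta-catenin, the carrier of the signal into the nucleus, had the widest spread of all member probes in CD 3 (SD 1.68). In CD 3 its ratios were 0.76, −0.94, −2.27, −3.48 and −0.17, where the Cy5 signal of 1 array was not well above background. In BD 3 they were 0.52, 0.42, −0.13, 0.23 and 0.16. In CD 14 they were 0.10, 0.18, 0.36, −1.63, −2.08 and −0.53, and in BD 14 0.61, 0.75, 0.59, 0.82, 0.01 and −0.63. All values below −0.9 were those of control rats, 3 of CD 3 on slide D and 2 of CD 14 on slide C, and the diet groups overlapped at both times. BD 3 was higher than CD 3 by 1.46 (standard error 0.60; limma adjusted p 0.616), and BD 14 than CD 14 by 0.96 (0.55; limma adjusted p 0.952). No BD 3 array lay on slide D. With the slide as a block the difference at 3 months turned to −0.36, and it was −0.06 on slides A, B and E alone. At 14 months it was 2.21 on slide C alone. Normexp with loess gave 0.46 and 0.43 at 3 and 14 months.

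Axin2, a scaffold of the destruction complex that is itself induced by the pathway, is the member most often used as a reading of canonical Wnt activity. Its ratios were 0.58, −1.05, −0.48, −1.38 and −0.85 in CD 3 and −0.22, −0.48, −0.96, −0.38 and −0.94 in BD 3. They lay between −2.48 and −0.24 (median −0.94) in CD 14 and between −2.03 and −0.11 (median −1.27) in BD 14. The diet differences were 0.04 (standard error 0.41) at 3 months and −0.06 (0.37) at 14 months, with limma adjusted p of 0.991 and 0.993. The time differences were −0.47 (0.39) and −0.56 (0.39) on control diet and BASE-diet, with limma adjusted p of 0.734 and 0.764. Under a slide block the diet differences turned to −0.91 and 0.67 and the time difference on BASE-diet to 0.94, none of which passed. The errors leave room for differences in either direction, and the values do not show that Axin2 was equal. Its median Cy5 signal was 39.1.

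Tcf7l2, the member of the Tcf family with which beta-catenin acts in liver, was bright on both probes (median Cy5 signals of 1750 and 951). The brighter probe (A_64_P040190, spread over 4354 genomic bases on chromosome 1) had means of −0.67 ± 0.61 and −0.23 ± 0.37 on control diet and BASE-diet at 3 months (SD, n = 5 each), and of −0.27 ± 0.50 and −0.41 ± 0.42 at 14 months (SD, n = 6 each). The second probe (A_64_P099307) had 0.27 ± 0.49, −0.08 ± 0.33, 0.09 ± 0.58 and −0.52 ± 0.90 in the same order. At 3 months the diet difference was 0.43 (standard error 0.30) on the first and −0.36 (0.38) on the second, so that the probes disagreed in direction. At 14 months it was −0.13 (0.27) and −0.61 (0.35), and the limma adjusted p of these 4 values lay between 0.831 and 0.967. In the Cy5 channel alone the first probe was higher in BD 14 than in CD 14 by 1.35, against −0.13 in the ratio, and under a slide block its diet differences turned to −0.36 and 0.24.

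Lgr5, a receptor for R-spondins that marks pericentral hepatocytes, was too dim to be compared. Its probes (A_64_P102796 and A_64_P003572) were well above background in Cy5 on 8 and 5 of 22 arrays, with median Cy5 signals of 13.3 and 4.94, and neither was tested. Tbx3, a transcription factor that Wnt signals switch on around the central vein, was bright enough on all 22 arrays. Its values were −0.33, −0.22, −0.10, −2.10 and −0.96 in CD 3 and −0.11, −0.62, −0.51, −0.82 and −1.14 in BD 3. They lay between −1.23 and −0.55 (median −0.77) in CD 14 and between −1.55 and −0.24 (median −0.54) in BD 14. The diet differences were 0.10 (standard error 0.32) and 0.19 (0.29), with limma adjusted p of 0.972 and 0.959, and all groups overlapped. The value at 3 months turned to −0.15 under a slide block and was 0.77 from Cy5 signals alone.

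Of the members tested besides Lrp5 and Wnt11, 0 of 8 probes passed limma's adjusted threshold of 0.05 between diets or between times, as did 0% of all tested probes in each of these 4 comparisons. At an unadjusted p under 0.05, Ctnnb1 was higher in BD 3 than in CD 3 (7.11% of all tested probes in either direction) and Fzd4 higher in BD 14 than in CD 14 (4.6%). Fzd4 was tested only through the BASE-diet groups, and nothing is read from its place in this count. Between the times there were 0 such probes on control diet (10.1% of all tested probes) and 0 on BASE-diet (7.44%). The interaction of diet and time gave 0 probes at either level, against 4.8% of all tested probes at an unadjusted p under 0.05 (2.48% above and 2.32% below 0).

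**Figure D4:**
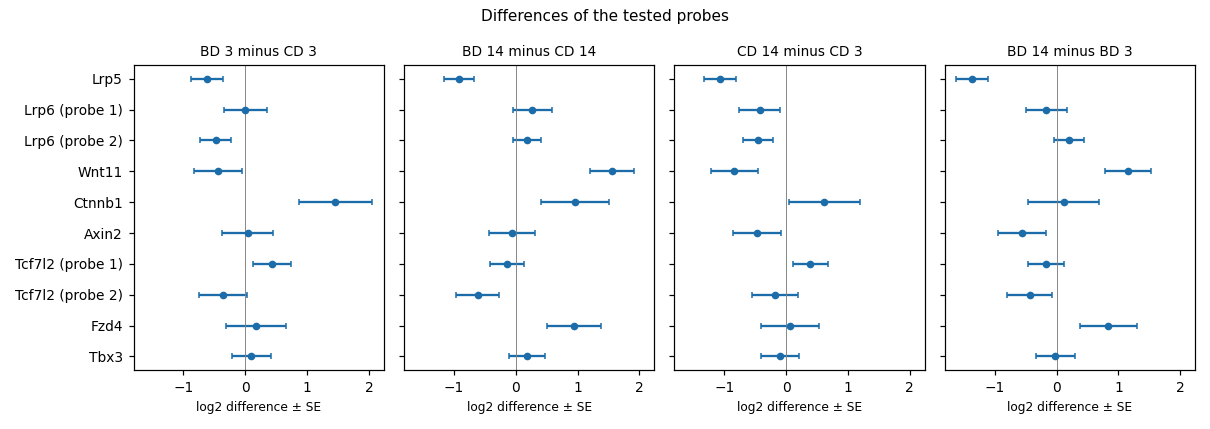
Log2 differences with their standard errors from limma for the 10 tested probes of the 8 measurable genes, in the 2 diet comparisons (left) and the 2 time comparisons (right). Lrp5 is below 0 in all panels (−0.62 to −1.37), Wnt11 is above 0 in both comparisons with BD 14, and Ctnnb1 has the longest error bars.

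The wider pathway was described with 7 lists of 101 genes, from ligands to targets, none of which are members. Of these, 90 were on the array and 61 were bright enough to be tested. Most ligands were not: of 19 Wnt and secretion genes on the array 7 were tested, of which Porcn, the enzyme that adds the lipid to Wnt proteins, was the brightest (diet differences of 0.09 and −0.10). Limma called 0 of the 61 genes between diets or between times, and after adjustment the analysis of variance that the methods name, with Tukey's test, also called 0.

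At an unadjusted p under 0.05, 2 of the 61 genes were higher and 1 was lower in BD 3 than in CD 3, against 4.99% and 2.11% of all tested probes. In BD 14 against CD 14, 5 were higher and 1 was lower (3.79% and 0.803% of all probes), and the 5 include Sfrp1 and Tle4, which were near background. On control diet 2 were higher and 1 lower at 14 months (6.85% and 3.29%), and on BASE-diet 1 was higher and 3 were lower (4.76% and 2.68%). The median differences of the 61 genes were 0.09, 0.01, −0.04 and −0.07 in these 4 comparisons, beside 0.03, 0.05, 0.03 and 0.07 over all tested probes. Each of these counts rests on few genes.

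Among receptors, 9 of 12 genes on the array were tested. Ror2, a receptor for Wnt5a, was higher in BD 14 than in CD 14 by 0.97 (standard error 0.36), and Ptk7, a co-receptor of planar polarity, was higher in BD 3 than in CD 3 by 0.53 and in CD 14 than in CD 3 by 0.41. The brightest, Fzd1, differed by 0.22 and −0.50 between diets. The limma adjusted p of these values lay between 0.411 and 0.952. With normexp and loess the value of Ror2 became 0.14, and a slide block turned that of Ptk7 to −0.23 and −0.09.

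The R-spondin axis had 4 tested genes of 6 on the array. Rspo3, the R-spondin known from central vein endothelium, was lower in BD 14 than in BD 3 by 1.07 on the log2 scale (limma adjusted p 0.628), and its receptor Lgr4 was lower by 0.54 (limma adjusted p 0.602). With the slide as a block Rspo3 was higher by 0.17.

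Of the antagonists, 5 of 14 genes on the array were tested. Sfrp1, which binds Wnt proteins outside the cell, differed by −0.57 (standard error 0.24) between diets at 3 months and by 0.63 (0.22) at 14 months, with limma adjusted p of 0.627 and 0.931. Its probe was well above background in Cy5 on 1 of 5 arrays in CD 3, 5 of 5 in BD 3 and 4 of 6 in each group at 14 months, and with normexp and loess the values were −0.08 and 0.09. In the Cy5 channel alone the value at 3 months turned to 0.97. The brightest antagonist, Frzb, differed by 0.50 and −0.25.

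In the cytoplasm, 14 of 15 genes on the array were tested. Tnks2, a tankyrase that marks Axin for degradation, was higher than in CD 3 both in BD 3, by 1.62 (standard error 0.44; limma adjusted p 0.400), and in CD 14, by 1.46 (0.42; limma adjusted p 0.238). These comparisons share the CD 3 arrays, whose ratios ran from −3.62 to −0.09 (SD 1.39). Without CD 3 rat 5 the differences were 1.99 and 1.82 and both passed limma's adjusted threshold (0.0325 and 0.0310), and without CD 3 rat 4 they were 1.11 and 0.94 and did not. Under a slide block they were 0.87 and 0.53, on slides A, B and E alone 0.84 and 0.60, and on the other Tnks2 probe 0.78 and 0.36, none of which passed. The brightest gene, the casein kinase Csnk1d, differed by 0.32 and −0.07 between diets.

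In the nucleus, where 16 of 17 genes on the array were tested, Tle4, a co-repressor of Tcf factors, had a ratio higher in BD 14 than in CD 14 by 1.00 (standard error 0.35). Its probe was well above background in Cy5 on 1 of 5 arrays in CD 3, 4 of 5 in BD 3, 4 of 6 in CD 14 and 6 of 6 in BD 14, so that it was tested only through the group with the higher ratio and nothing is read from this value. Ctbp1, another co-repressor and the brightest of its list, was lower in BD 14 than in CD 14 by 0.30 on the log2 scale. Lef1, a relative of Tcf7l2, was lower in CD 14 than in CD 3 by 0.71 on the log2 scale and turned to 0.31 with the slide as a block. In the Cy5 channel alone the value of Tle4 was 0.04 (0.15 with normexp and loess) and that of Ctbp1 turned to 0.17. Among targets of many tissues, Ccnd1, which encodes cyclin D1, was higher in BD 14 than in CD 14 by 1.17 (0.43), and by 2.42 on slide C alone. The limma adjusted p of these 4 values lay between 0.468 and 0.952.

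Lists of the liver zones were also described, since the pathway sets them up. All 12 perivenous and all 12 periportal genes were tested. In BD 14 against CD 14, 3 perivenous genes were lower at an unadjusted p under 0.05 and 0 were higher, beside 0.803% and 3.79% of all tested probes, and the median of the 12 was −0.17 beside 0.05 over all probes. The corresponding numbers at 3 months were 0 and 0 with a median of 0.06. Between BD 14 and BD 3 the perivenous median was −0.55 beside 0.07 over all probes, with 3 genes lower and 0 higher (2.68% and 4.76% of all probes). The periportal median moved to the same side there, at −0.29, with 2 genes lower and 0 higher.

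The 3 perivenous genes that were lower in BD 14 than in CD 14 were Slc1a2, a glutamate transporter, with a difference of −0.98 (standard error 0.29), Cyp1a2, a cytochrome P450 of drug and caffeine metabolism, with group means of −1.05 ± 0.65 in CD 14 and −2.05 ± 0.70 in BD 14 (SD, n = 6 each), and Rgn, the calcium-binding regucalcin, with a difference of −0.84 (0.32). Their limma adjusted p were 0.767, 0.931 and 0.952. Slc1a2 lay between −0.76 and 0.48 in CD 14 (median −0.44) and between −2.19 and −0.66 in BD 14 (median −1.14), and Cyp1a2 between −1.96 and −0.36 (median −0.99) and between −3.13 and −1.05 (median −2.02). The groups overlapped for both. On slide C alone the 3 differences were −1.20, −1.59 and −1.41, and with normexp and loess that of Slc1a2 was −0.35. Cyp1a2 is also a target of the aryl hydrocarbon receptor.

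Other perivenous genes had other values. Glul, the glutamine synthetase that is the textbook pericentral gene and was named for that reason outside the rule, differed by 0.81 at 3 months and −0.14 at 14 months, and Cyp2e1, the brightest of the list, by 0.76 and 0.48. Nr1i3, the nuclear receptor CAR, was lower at 14 months than at 3 months on both diets, by 1.18 and 1.22 on the log2 scale (limma adjusted p 0.405 and 0.574), and Lect2 was lower in CD 14 than in CD 3 by 0.95 on the log2 scale. None of these passed limma's adjusted threshold.

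The periportal list had 0 genes past an unadjusted p of 0.05 between diets at 14 months (4.6% of all tested probes in either direction) and 1 at 3 months (7.11%), Sds, the serine dehydratase, which was higher in BD 3 by 2.75 (standard error 1.14). Gls2, a glutaminase, was lower in CD 14 than in CD 3 by 0.51 on the log2 scale. In that comparison 2 periportal genes (median −0.03) and 2 perivenous genes (median −0.08) were lower and 0 of either list higher, beside 3.29% and 6.85% of all tested probes. Arg1, the brightest, differed by −0.07 and 0.23 between diets.

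**Figure D5:**
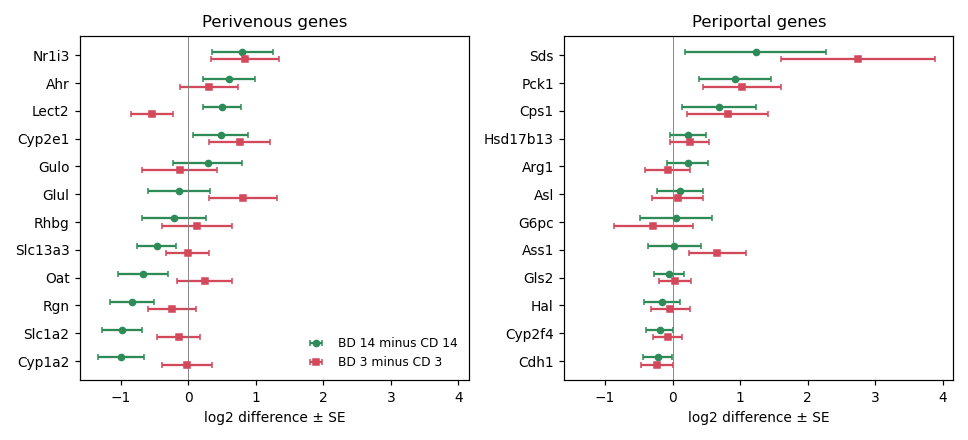
Log2 differences between diets with standard errors from limma for the 12 perivenous (left) and 12 periportal genes (right), at 14 months (green circles) and at 3 months (red squares). Cyp1a2, Slc1a2 and Rgn lie lowest at 14 months (Slc1a2 at −0.98 and Rgn at −0.84), and none of the 24 genes passed the adjusted threshold.

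Between BD 14 and CD 3, which differ in diet, time and slide at once, limma called 61 probes (0.314% of those tested), and Slc1a2 was the only gene of all the lists among them. It fell by 1.40 on the log2 scale (standard error 0.31; limma adjusted p 0.0487). The call was close to the threshold: it was kept under 3 of 15 other settings and in 4 of 22 fits with 1 array left out, while the value stayed between −1.53 and −0.48 in all of them. With the slide as a block its limma adjusted p was 0.791. At an unadjusted p under 0.05, 3 perivenous genes were lower and 0 were higher (4.89% and 12.2% of all tested probes), and 4 of the 61 Wnt pathway genes (Tle4 among them) were higher and 1 was lower. Among the 8 member probes tested besides Lrp5 and Wnt11, those of Ctnnb1 and Fzd4 were higher and the second of Tcf7l2 was lower at this level (17.1% of all tested probes in either direction). Nothing is read from Fzd4 here, since its probe was tested only through the BASE-diet groups. None was called after adjustment, and the lowest adjusted p was that of Ctnnb1 (0.168).

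Receptors related to Lrp5 and Lrp6 by structure were set beside them, and 9 of 12 genes on the array were tested. In BD 3 against CD 3, 5 were higher and 4 lower, with a median of 0.07 beside 0.03 over all probes. At an unadjusted p under 0.05, 1 was higher and 2 were lower (4.99% and 2.11% of all tested probes). At 14 months 6 were higher and 3 lower in BD 14 than in CD 14, with 0 at this level. Lrp2, an endocytic receptor, and Lrp10 were lower in BD 3 than in CD 3 by 0.59 and 0.33 on the log2 scale, with limma adjusted p of 0.664 and 0.684, and the second probe of Lrp2 gave 0.14.

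The genes whose ratios were most like those of Lrp5 over the 22 arrays were Slc25a21, E4f1, Hcrt, Polr3gl and Sgsm3, with Pearson r between 0.77 and 0.84, among 11167 named genes. After the group means were taken off, their r was between 0.38 and 0.62. Slc25a21, a mitochondrial carrier of oxodicarboxylates, had a mean of −0.05 ± 1.13 in CD 3 (SD, n = 5) and of −2.50 ± 1.01 in BD 14 (SD, n = 6). The genes most unlike Lrp5 were Znfx1, Tm9sf2, Nrg1, Trhr2 and Adam9, with r between −0.80 and −0.78. Without the group means their r was between −0.78 (Tm9sf2) and −0.24 (Nrg1). Nrg1, an ErbB ligand, had a mean of 1.04 ± 0.68 in the 5 rats of CD 3 and of 3.17 ± 0.56 in the 6 rats of BD 14 (SD). Among the other members the highest r with Lrp5 was that of Axin2 (0.45, and 0.37 without the group means) and the lowest that of Fzd4 (−0.40 and −0.03). The arrays share a reference and slides, and r is given as a description.

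Markers of other liver cells were also described. Of 7 Kupffer cell markers, 5 were higher in CD 14 than in CD 3 at an unadjusted p under 0.05 (6.85% of all tested probes; median difference 1.19; 0 passed after adjustment), and their mean log2 ratio lay between −3.04 and −0.63 in CD 3, −2.21 and −0.41 in BD 3, −1.21 and −0.06 in CD 14 and −1.71 and −0.04 in BD 14. Of the sinusoidal endothelial markers, 8 of 10 were on the array and 7 were tested, with mean log2 ratios between −0.90 and 0.14 in CD 3, −0.38 and 0.11 in BD 3, −0.19 and 0.62 in CD 14 and −0.79 and 0.06 in BD 14. Each Kupffer and sinusoidal marker that was on the array was well above background on at least 1 array. Of 5 red cell markers 4 were on the array and tested, and 3 of these were lower in BD 3 than in CD 3 at an unadjusted p under 0.05 (2.11% of all tested probes; median difference −1.07; 0 passed after adjustment). Their mean log2 ratio lay between −1.60 and 0.21 in CD 3, −2.55 and −0.47 in BD 3, −1.49 and 0.11 in CD 14 and −1.89 and 0.24 in BD 14. In the diet and time comparisons, 2 of 8 stellate cell markers were higher in BD 3 than in CD 3 at this level (4.99% of all probes), and the lists of hepatocytes, sinusoidal endothelium, bile duct, lymphocytes and pancreas had 0 or 1 gene each. The part of blood or of cell composition in the values of Lrp5 was not tested.

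The promoter of Axin2 is shown because it is the target gene of the pathway among the members with a sequence at hand. The sequence comes from RefSeq (GRCr8) and gives the 250 bases before the start of the gene on the plus strand, chr10:94398535-94398784, with the letters CTTTGA or CTTTGT, a core of Tcf binding sites, in capitals where they occur on either strand.
Axin2: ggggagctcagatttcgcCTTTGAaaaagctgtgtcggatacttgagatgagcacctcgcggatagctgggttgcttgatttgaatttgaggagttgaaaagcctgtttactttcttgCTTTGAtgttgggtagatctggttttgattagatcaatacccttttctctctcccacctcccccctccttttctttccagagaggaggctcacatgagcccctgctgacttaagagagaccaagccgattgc
It held 2 such matches, both CTTTGA. Of the 5 members found in this table (Axin2, Ctnnb1, Fzd4, Tcf7l2 and Wnt11), 1 held a match, as did 27.2% of all 27457 promoters. A match describes letters only.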

How the data were processed

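Liver RNA of 22 rats was measured on two-colour Agilent arrays. Per the file headers, the scanner files hold spot intensities, background-subtracted and dye-normalized by the authors with Feature Extraction (10.10.1.1 in the headers, 10.7.3.1 in the submitters' processing notes), and a log10 ratio of red (Cy5) to green (Cy3). The series table deposited by the authors holds log2 ratios of 3017 entries, with 3 member probes. Of its 5 CD 3 columns, 4 matched an array of another number and 1 matched none, so that it served only as an alternative.

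The log10 ratios were turned to log2 and spots of a probe were averaged, without control spots and non-uniform spots. To be tested, a probe needed 1 group in which each array had a share of 0.5 or more of its spots well above the Cy5 background (19434 probes). The 4 group means were fitted with limma 3.58.1 (R 4.3.3), with Benjamini-Hochberg adjustment over all tested probes and a threshold of 0.05. A gene of a list was taken from its brightest probe. The labels do not name litters, the rats were housed singly according to the paper, and p-values measure the spread between these rats. The number of arrays limits the precision.

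The members and lists were chosen with earlier results of these data known. Named were every member, every list gene past the adjusted threshold, in each of the 4 comparisons the 4 largest differences in each direction among list genes at an unadjusted p under 0.05, the brightest gene of each list, and the 5 genes most and least like Lrp5. Not every gene so named is described in full, and 1 gene of the lists is not reported here.

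Alternatives were normexp (offset 50) with loess, the Cy5 channel alone with quantile normalization, median centring, other filters, non-uniform spots kept, array weights, an intensity trend, the slide as a fixed or random block, the rat number as a block, only the groups compared, the methods' F test and Tukey's HSD, the series table, other probes, and each array left out in turn. Leaving out the 2 arrays of many non-uniform spots, slide C alone, and slides A, B and E alone were added after seeing the data. On simulated data with 200 of 19434 probes changed between BD 14 and CD 14, limma recovered 40% of probes changed by 1 and 85% of those changed by 2 on the log2 scale. Promoter and member sequences came from RefSeq (GRCr8) and the array files.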

Additional observations from a re-analysis of the deposited data

Results flagged for a closer look

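In 5 of 52 checks of a member probe within a group, 1 rat stood apart from the others of its group by a gap that Dixon's test counts as large. Chance flags about 1 in 20 groups. The second Tcf7l2 probe (A_64_P099307) had −2.27 in BD 14 rat 2, the lowest of its group. Fzd4 had 1.07 in CD 3 rat 2, −1.58 in BD 3 rat 5 and 1.24 in CD 14 rat 4. Tbx3 had −1.55 in BD 14 rat 6.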

How the results depend on the processing

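The Lrp5 differences kept their direction under every alternative that could give them, and with array weights that between diets at 3 months was −0.40 against −0.62. Lrp5 was chosen for its order on these same arrays, so that the kept direction is a description and no test. With 1 array left out, they lay in these ranges: −0.77 to −0.45 between diets at 3 months, −1.02 to −0.79 between diets at 14 months, −1.20 to −0.90 between times on control diet, −1.47 to −1.22 between times on BASE-diet. The difference between times on BASE-diet moved by more than the replicate SD to −0.91 in Cy5 alone and to −0.94 under a slide block, against −1.37. The 61 pathway genes and 6 tested members other than Lrp5 and Wnt11 were counted together (67 genes). Their count past limma's adjusted threshold lay between 0 and 1 with 1 array left out, and it was 1 without CD 3 replicate 5 between diets at 3 months and between times on control diet, and between BD 14 and CD 3 without CD 3 replicate 2 or 5 and in the Cy5 channel alone. The gene was Tnks2 in all these cases and Tnks in the Cy5 channel. The count was 0 under the other alternatives. Over all tested probes, limma called 0 in each diet and time comparison and 61 between BD 14 and CD 3. From Cy5 signals alone it called 221 between diets at 3 months and 544 between BD 14 and CD 3, without CD 3 replicate 5 it called 93 between diets at 3 months and 205 between times on control diet, and without CD 3 replicate 2 it called 1411 between BD 14 and CD 3, against 0 under a slide block. With array weights it called 99 between times on BASE-diet and 5 between diets at 14 months, and in a fit of the 2 groups alone it called 22 between times on BASE-diet. All other settings gave between 0 and 10 in these 4 comparisons.

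None of the differences that turned had passed the adjusted test, and the cause was not tested. With arrays centred on their medians, the direction turned for Lrp6 at −0.036 and Axin2 at −0.00311 between diets at 3 months. With array weights, the direction turned for Lrp6 at −0.074 and Tbx3 at −0.018 between diets at 3 months and for Fzd4 at −0.030 between times on control diet. Under a slide block, the direction turned for Lrp6 at −0.50, Ctnnb1 at −0.36, Axin2 at −0.91, Tcf7l2 at −0.36, Tbx3 at −0.15 and Ptk7 at −0.23 between diets at 3 months, for Axin2 at 0.67 and Tcf7l2 at 0.24 between diets at 14 months, for Ctnnb1 at −0.27, Tcf7l2 at −0.21, Ptk7 at −0.088, Lef1 at 0.31 and Gls2 at 0.028 between times on control diet and for Lrp6 at 1.25, Axin2 at 0.94, Tcf7l2 at 0.39, Tbx3 at 0.30 and Rspo3 at 0.17 between times on BASE-diet. Under a random slide block, the direction turned for Lrp6 at −0.16 and Axin2 at −0.20 between diets at 3 months, for Axin2 at 0.13 and Tcf7l2 at 0.00373 between diets at 14 months and for Lrp6 at 0.19, Tcf7l2 at 0.017 and Tbx3 at 0.044 between times on BASE-diet. On slides A, B and E alone, the direction turned for Lrp6 at −0.30, Ctnnb1 at −0.056, Axin2 at −0.46 and Tcf7l2 at −0.059 between diets at 3 months and for Ctnnb1 at −0.27 and Lef1 at 0.085 between times on control diet. On the other probe of the gene, the direction turned for Lrp6 at −0.47, Tcf7l2 at −0.36 and Lrp2 at 0.14 between diets at 3 months, for Ctbp1 at 0.31 between diets at 14 months, for Tcf7l2 at −0.18 between times on control diet and for Lrp6 at 0.20 between times on BASE-diet. From Cy5 signals alone, the direction turned for Tcf7l2 at −0.32, Sfrp1 at 0.97 and Ptk7 at −0.052 between diets at 3 months, for Lrp6 at −0.50, Tcf7l2 at 1.35 and Ctbp1 at 0.17 between diets at 14 months, for Lrp6 at 0.59, Tcf7l2 at −0.11, Fzd4 at −0.20 and Tbx3 at 0.31 between times on control diet and for Tcf7l2 at 1.56 and Sfrp1 at −0.13 between times on BASE-diet. With normexp and loess, the direction turned for Axin2 at −0.18 and Tbx3 at −0.029 between diets at 3 months, for Fzd4 at −0.077 between times on control diet and for Tbx3 at 0.050 between times on BASE-diet. Without both arrays rich in non-uniform spots, the direction turned for Fzd4 at −0.014 between diets at 3 months, for Axin2 at 0.12 and Tcf7l2 at 0.025 between diets at 14 months and for Fzd4 at −0.074 between times on control diet. On slide C alone, the direction turned for Axin2 at 0.67 and Tcf7l2 at 0.24 between diets at 14 months. With 1 array left out, the direction turned in at least 1 fit for Lrp6 (−0.22 to 0.17), Axin2 (−0.15 to 0.34), Fzd4 (−0.014 to 0.54) and Tbx3 (−0.24 to 0.26) between diets at 3 months, for Axin2 (−0.33 to 0.12) and Tcf7l2 (−0.24 to 0.025) between diets at 14 months, for Fzd4 (−0.25 to 0.43) and Tbx3 (−0.44 to 0.056) between times on control diet and for Lrp6 (−0.28 to 0.011) and Tbx3 (−0.14 to 0.16) between times on BASE-diet.

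Rats with the same number did not deviate together on average (mean r 0.01 over 31 pairs, against −0.00 over 150 pairs of other numbers). Single pairs reached r of 0.29 and 0.45. Within CD 3, BD 3 and CD 14 the numbers ran in blocks with the slides, and what else they stand for is not known. With the rat number as a replicate block, the Lrp5 differences were −0.92 between diets at 14 months and −1.38 between times on BASE-diet, Tbx3 turned to 0.020 and 0.11 between times on control diet and BASE-diet, and limma called 4 probes between BD 14 and CD 3 instead of 61. Signals close to background (Wnt11, Fzd4, Axin2, Lgr5, Sfrp1 and Tle4) limit what the ratios of these genes can show.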
